A study of Mus musculus with 9 samples.

Results

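The genes described are 9 members of the neurotrophin and GDNF signalling systems, the ligands Bdnf, Ntf3 and Gdnf and the receptors Ntrk2, Ntrk3, Ngfr, Gfra1, Gfra2 and Ret. They were chosen by symbol, with earlier results of these data known, and are 9 of 32695 genes in the tables. Cells were taken from the ventral midbrain, from mice of the line VGAT-Cre:Ai14:Pitx3-GFP. In this line tdTomato marks cells in which Slc32a1 (VGAT), the gene of the vesicular GABA transporter, is or was active, and GFP marks cells that express Pitx3, a dopamine neuron transcription factor gene. All groups share these alleles. Cells with tdTomato (tdT+) were sorted onto 7 plates, 4 at embryonic day E16.5 and 3 at postnatal day P0.5 (VGAT plates), and cells with tdTomato and GFP (tdT+GFP+) onto 2 plates, 1 at each stage (VGAT+Pitx3 plates). The sample labels write these stages as E16 and P0. Several brains were pooled and no label ties a cell to an animal, so the plate is the replicate and the p-values measure the spread between plates, which may be technical. Since the reporter needs only past Cre activity, tdTomato does not show that a cell still expressed Slc32a1.

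Neurotrophins are secreted growth factors that act on receptor tyrosine kinases. BDNF binds TrkB, the product of Ntrk2, NT-3, the product of Ntf3, binds mainly TrkC, the product of Ntrk3, and all neurotrophins bind the receptor p75, the product of Ngfr. GDNF family ligands bind a GPI-anchored coreceptor of the GFRα family, and the complex signals through the receptor tyrosine kinase RET, with GDNF preferring GFRα1 and neurturin preferring GFRα2. In the midbrain, GDNF and BDNF are known for supporting dopamine neurons in culture and RET for its expression in dopamine neurons.

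On the GRCm38 build, Bdnf lies at chr2:109674700-109727007, Ntf3 at chr6:126101412-126166910, Gdnf at chr15:7810846-7837575, Ntrk2 at chr13:58806569-59133970, Ntrk3 at chr7:78175959-78738012, Ngfr at chr11:95568818-95587735, Gfra1 at chr19:58235604-58455909, Gfra2 at chr14:70890120-70979838 and Ret at chr6:118151745-118197718. Bdnf, Ntrk2, Ntrk3 and Gfra1 each overlap 1 or more annotated genes of the other strand, and Ntrk2 and Ntrk3 also genes of the same strand. Strandedness of the counting is not given in the sources used here, so reads of these neighbours cannot be told apart from those of the member. Counting near the 3′ end also does not separate isoforms, such as the kinase and truncated forms of TrkB. The ligand genes Bdnf and Ntf3 differed both between and within the sorted populations, and Bdnf is known for a promoter that responds to neuronal activity. The 250 bases before a transcript start are therefore printed for each of them, 5′ to 3′ on the strand of the gene, from RefSeq on GRCm38.p6, with matches to the searched motifs in capitals. The Bdnf window is chr2:109692186-109692435 on the plus strand and the Ntf3 window is chr6:126164961-126165210 on the minus strand.
Bdnf: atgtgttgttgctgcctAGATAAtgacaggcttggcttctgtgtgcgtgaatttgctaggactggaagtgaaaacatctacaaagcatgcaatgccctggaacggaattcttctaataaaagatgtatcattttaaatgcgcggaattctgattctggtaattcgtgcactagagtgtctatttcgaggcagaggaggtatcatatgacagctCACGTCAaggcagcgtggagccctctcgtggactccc
Ntf3: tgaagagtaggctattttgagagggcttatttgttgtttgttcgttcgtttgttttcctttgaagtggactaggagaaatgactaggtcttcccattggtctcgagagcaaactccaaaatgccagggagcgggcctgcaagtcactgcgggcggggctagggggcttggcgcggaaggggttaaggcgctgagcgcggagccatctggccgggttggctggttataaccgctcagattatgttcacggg

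Both windows lie outside annotated exons. The search covered both strands of 14 windows, found for 6 of the 9 members, for the letters of 5 motifs, that of Nr4a factors (AAGGTCA), that of Foxa factors (TGTTTAC), that of Pitx factors (TAATCC), that of Gata factors (AGATAA) and that of Creb factors (CACGTCA), and the matches did not overlap. In the Bdnf window the Gata letters began 233 bases and the Creb letters 37 bases before the start, and the Ntf3 window held no match. The Bdnf window is the one with the most matches of its 7 windows, of which 2 others held 1 match each and 4 none, and neither of the 2 Ntf3 windows held any. Of 32851 windows of the same length, 9.99% held the Gata and 1.65% the Creb letters, and 4.08%, 3.17% and 6.25% those of Nr4a, Foxa and Pitx. A match is a description of the letters and not of binding.

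Of 3455 wells, 2034 held a cell that passed the filters, 1459 on VGAT plates and 575 on VGAT+Pitx3 plates, with 44 to 304 cells and 1435919 to 5408710 counts per plate. Levels are given in CPM, the counts of a gene scaled to the total of the genes kept by the filter, with TMM factors applied. Levels of parts of a plate are scaled within their own fits, so they compare with whole-plate levels only roughly. Of the total of a plate, 3 counts correspond to 0.555 to 2.09 CPM. The column names carry 2 plate labels, and the second gives another stage than the first for 4 of the 9 plates (VGAT E16.5 replicates 3 and 4 and VGAT P0.5 replicates 1 and 3). The first, which matches the sample titles, was used. The dopamine neuron markers followed it in sort: summed over 10 genes they had 135 to 229 CPM on the VGAT plates and 5185 to 6602 CPM on the VGAT+Pitx3 plates. The summed levels of 6 GABA neuron markers were 2337 to 2913 and 1180 to 1340 CPM. Between the sorted populations Gad1, Gata2, Gata3 and Tal1 were lower in tdT+GFP+ cells, at 0 to 14.5 CPM there, Gad2 was higher, at 936 and 1044 against 493 to 650 CPM, and Slc32a1 did not pass, at 225 and 285 against 158 to 325 CPM. Summed glutamate neuron markers had 1.90 to 23.9 CPM on the VGAT plates and 108 and 210 CPM on the VGAT+Pitx3 plates, and Slc17a6, the vesicular glutamate transporter gene VGLUT2, was the 1 of them that was higher. Of 6 astrocyte and radial glia markers tested, Aldoc was lower in tdT+GFP+ cells (log2 fold change -2.25). The part of these marker differences in the members' values was not tested. Summed markers of astrocytes and radial glia reached 542 CPM on 1 VGAT plate, those of oligodendrocytes 90.5 CPM, those of microglia 55.0 CPM and those of vessels 10.6 CPM, and Schwann cell and neural crest markers were at or under 1.35 CPM.

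The first comparison asked which of these genes separate tdT+GFP+ cells from tdT+ cells. Bdnf, Ntf3, Ret and Gfra1 were higher on the VGAT+Pitx3 plates, Ntrk3 and Gfra2 were lower, and Ntrk2 and Ngfr did not pass the test. The plate sums were compared in edgeR (quasi-likelihood test, stage as a covariate, adjusted p under 0.05). Of 14624 genes tested, 1306 or 8.93% passed. Of the 9 members 8 were tested and 6 passed, 4 higher and 2 lower. The median log2 fold change of the 8 tested was 1.08, beside -0.00076 over all genes tested. The members ran in both directions, and Ntf3 was tested only through its counts on the VGAT+Pitx3 plates, so this median does not describe a shift of the set. In sums over sorted cells, fewer cells with a transcript and less transcript per cell cannot be told apart, so the share of cells with a count is given beside the level.

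Bdnf, the ligand of TrkB, had 10.8, 9.91, 11.0 and 13.5 CPM on the VGAT E16.5 plates, 27.6, 10.6 and 21.6 CPM on the VGAT P0.5 plates, and 135 and 124 CPM on the E16.5 and P0.5 VGAT+Pitx3 plates. The lower VGAT+Pitx3 plate lay above all 7 VGAT plates. The log2 fold change was 3.18 ± 0.22 (SE, edgeR adjusted p = 1.43e-07). With each cell thinned to 4000 counts, 4.50% ± 2.63 (SD, n = 7) of VGAT cells had a Bdnf count, and 23.1% and 21.7% of VGAT+Pitx3 cells had one. Without thinning these shares were 16.4% ± 9.54 (SD, n = 7), 38.8% and 27.7%, and the groups overlapped, since VGAT P0.5 replicate 1, with 44 cells, had 36.4%.

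Ntf3 was close to absent from VGAT plates, with 2, 6, 1 and 1 counts at E16.5 and 4, 0 and 5 counts at P0.5, against 178 and 124 counts on the VGAT+Pitx3 plates. In CPM the VGAT plates had 0 to 2.69 and the VGAT+Pitx3 plates 40.2 and 55.6. The groups did not overlap. The log2 fold change was 5.84 ± 0.37 (SE, edgeR adjusted p = 7.04e-08), and since several VGAT plates lay at or under 3 counts its size depends on the prior count. On the VGAT plates alone Ntf3 did not pass the filter on low counts. It entered this test only through its counts on the VGAT+Pitx3 plates, so the p-value is not separate support. A count was found in 8.70% and 15.3% of the thinned VGAT+Pitx3 cells and in 0.159% ± 0.202 (SD, n = 7) of the VGAT cells, and without thinning in 23.4%, 21.4% and 1.48% ± 1.59.

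Gdnf, the ligand of GFRα1 and RET, was near the limit of detection on every plate, with 0, 1, 1 and 2 counts on the VGAT E16.5 plates, 1, 1 and 0 on the VGAT P0.5 plates and 0 on both VGAT+Pitx3 plates. It was too low to be tested and no fold change is given. After thinning 0 of 299 and 0 of 249 VGAT+Pitx3 cells had a count, which allows shares of up to 1.00% and 1.20%, a one-sided limit of 3 cells of each total. The exact 95% binomial intervals, which are two-sided, reach 1.23% and 1.47%, and both limits cover counting error only.

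Ret, the signalling receptor of the GDNF family, had 15.3, 21.5, 15.4 and 11.3 CPM on the VGAT E16.5 plates, 16.8, 22.2 and 26.9 CPM on the VGAT P0.5 plates, and 235 and 361 CPM on the VGAT+Pitx3 plates. All VGAT plates lay far below both VGAT+Pitx3 plates. The log2 fold change was 3.93 ± 0.16 (SE, edgeR adjusted p = 8.15e-10). Ret was found in 5.98% ± 2.26 (SD, n = 7) of thinned VGAT cells and in 49.8% and 65.9% of VGAT+Pitx3 cells, the largest difference in share among the 9 members. Without thinning these shares were 21.6% ± 6.74 (SD, n = 7), 83.2% and 82.3%.

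The GFRα coreceptors moved in opposite directions. Gfra1, the coreceptor preferred by GDNF, had 76.4, 37.0, 100.2 and 72.5 CPM on the VGAT E16.5 plates, 24.9, 72.8 and 24.2 CPM on the VGAT P0.5 plates and 158 and 132 CPM on the VGAT+Pitx3 plates. The groups did not overlap, and the log2 fold change was 1.41 ± 0.33 (SE, edgeR adjusted p = 0.0137). This call was lost without either VGAT+Pitx3 plate, with DESeq2 and with the replicate number as a block, at adjusted p-values of up to 0.211. Gfra2, the coreceptor preferred by neurturin, had 37.4, 65.8, 45.1 and 47.9 CPM on the VGAT E16.5 plates, 59.2, 70.5 and 83.2 CPM on the VGAT P0.5 plates and 20.1 and 32.3 CPM on the VGAT+Pitx3 plates. Here both VGAT+Pitx3 plates lay below all VGAT plates, and the log2 fold change was -1.23 ± 0.21 (SE, edgeR adjusted p = 0.00148). Without the E16.5 VGAT+Pitx3 plate the call was lost (adjusted p = 0.0669). The thinned shares had the same directions: Gfra1 was found in 10.1% ± 5.23 (SD, n = 7) of VGAT cells and in 29.4% and 32.9% of VGAT+Pitx3 cells, and Gfra2 in 17.4% ± 3.35 (SD, n = 7), 5.69% and 7.23%. Without thinning the shares were 20.6% ± 5.73 (SD, n = 7), 52.6% and 44.3% for Gfra1 and 42.6% ± 10.04 (SD, n = 7), 18.4% and 16.2% for Gfra2.

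On the VGAT plates the Trk receptor genes were the most widely detected members. Ntrk2 had 287, 314, 348 and 332 CPM on the VGAT E16.5 plates, 305, 355 and 278 CPM on the VGAT P0.5 plates, and 287 and 380 CPM on the VGAT+Pitx3 plates. These ranges overlapped, and the log2 fold change of 0.06 ± 0.14 (SE) did not pass (edgeR adjusted p = 0.897). Ntrk3 had 308, 318, 441 and 400 CPM on the VGAT E16.5 plates, 302, 266 and 282 CPM on the VGAT P0.5 plates and 112 and 131 CPM on the VGAT+Pitx3 plates. Every VGAT plate lay above both VGAT+Pitx3 plates, with a log2 fold change of -1.41 ± 0.18 (SE, edgeR adjusted p = 0.000101). Ntrk3 was found in 55.6% ± 3.89 (SD, n = 7) of thinned VGAT cells and in 24.7% and 35.3% of VGAT+Pitx3 cells. For Ntrk2 the shares were 68.5% ± 4.57 (SD, n = 7), 62.9% and 71.9%. Without thinning they were 77.0% ± 5.73 (SD, n = 7), 50.3% and 47.6% for Ntrk3 and 92.6% ± 3.31 (SD, n = 7), 89.5% and 88.9% for Ntrk2. Ngfr, which encodes p75, stayed between 1.67 and 8.74 CPM on the VGAT plates and had 5.43 and 10.8 CPM on the VGAT+Pitx3 plates, with a log2 fold change of 0.75 ± 0.51 (SE, edgeR adjusted p = 0.524).

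**Figure D1:**
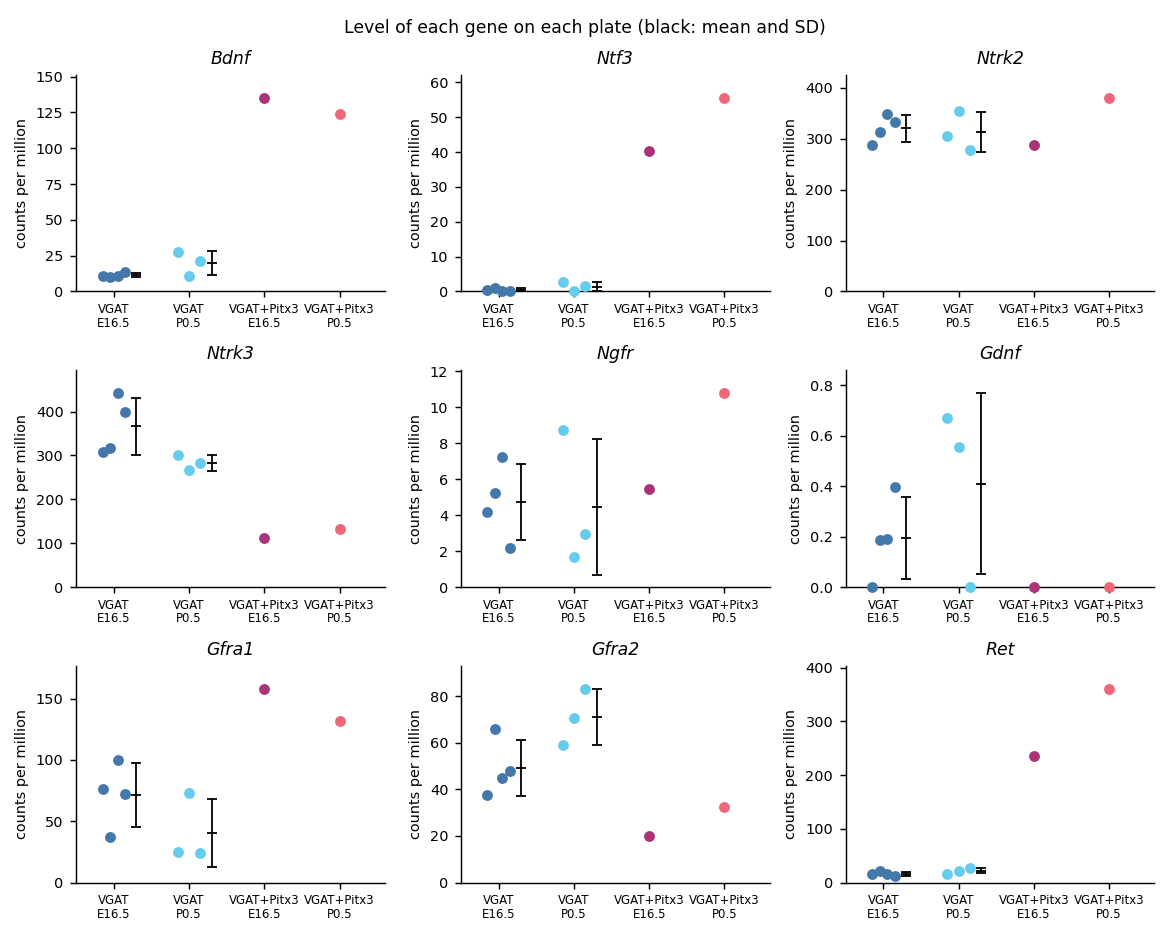
Level of each member in CPM (linear axis) on the 9 plates, with points for plates and lines for the mean and SD of each group. Bdnf, Ntf3 and Ret lie far higher on both VGAT+Pitx3 plates than on the 7 VGAT plates, and Ntrk2 overlaps between them.

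Between E16.5 and P0.5, compared on the 7 VGAT plates, no member passed the test. Of 13639 genes tested with edgeR, 624 or 4.58% passed, and of the 9 members 7 were tested. Bdnf had 11.3 ± 1.54 CPM (SD, n = 4) at E16.5 and 19.9 ± 8.64 CPM (SD, n = 3) at P0.5, with a log2 fold change of 0.82 ± 0.27 (SE, edgeR adjusted p = 0.092). Gfra2 had 49.0 ± 12.0 and 71.0 ± 12.0 CPM (log2 fold change 0.56, edgeR adjusted p = 0.0928). For both genes 1 P0.5 plate lay within the E16.5 range. Bdnf passed without P0.5 replicate 2 (edgeR adjusted p = 0.0377) and Gfra2 without E16.5 replicate 2 (edgeR adjusted p = 0.0212). Of the astrocyte and radial glia markers tested, Aldoc and Fabp7 were higher at P0.5 (log2 fold changes 1.41 and 4.03, edgeR adjusted p = 0.0189 and 0.0402). Fabp7 had 246 CPM on P0.5 replicate 2 and 7.40 and 4.38 CPM on the other P0.5 plates, and this plate is also the one that lay within the E16.5 range for Bdnf and Gfra1. The part of these markers in the members' values was not tested. Gfra1, with 71.5 ± 26.1 CPM (SD, n = 4) and 40.6 ± 27.8 CPM (SD, n = 3), had a log2 fold change of -0.84 (edgeR adjusted p = 0.196), and a single P0.5 plate, replicate 2 at 72.8 CPM, lay within the E16.5 range. Without that plate the log2 fold change of Gfra1 was -1.54, which did not pass. Over the VGAT plates whose labels agree in stage, E16.5 replicates 1 and 2 and P0.5 replicate 2, the value for Gfra1 was 0.38. That fit has a single P0.5 plate, the same replicate 2. With no filter on low counts Bdnf, Ntrk3, Gfra1 and Gfra2 passed. Ntrk3 (log2 fold change -0.36), Ret (0.51), Ngfr (-0.20) and Ntrk2 (-0.02) had edgeR adjusted p-values of 0.142, 0.206, 0.857 and 0.928. With the stage of the second plate label in place of the first, 1 gene passed and the signs of Bdnf, Ntrk2, Ntrk3, Gfra1, Gfra2 and Ret turned, so the order of the stages rests on which label is right. Whether the stage difference itself differed between the sorted populations was tested as an interaction, with 1 VGAT+Pitx3 plate at each stage, whose spread is taken from the VGAT plates, so that a difference could easily be missed. In this fit 0 of 15724 genes (0%) passed, with 997 at an unadjusted p under 0.05 and 14 called by DESeq2. No member passed, which does not show that the stage differences were alike. The interaction for Bdnf was -0.94 (adjusted p = 0.777 in edgeR).

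**Figure D2:**
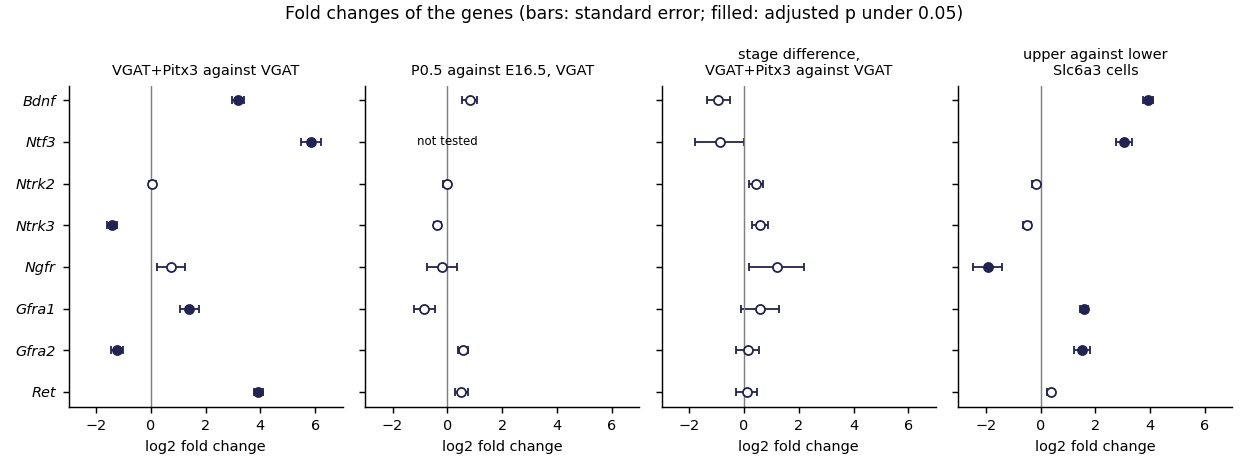
Log2 fold change with its standard error for each member tested, in the comparison of sorted populations, of stages and of cells with higher and lower Slc6a3. In the populations Ret, Ntf3 and Bdnf stand at 3.93, 5.84 and 3.18, and in the Slc6a3 comparison Ret falls back to 0.36 while Bdnf stands at 3.92.

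The tdT+GFP+ cells were not uniform. They were split on each plate at the median of the count of Slc6a3, the dopamine transporter gene, per 10000 counts, to ask which members go with it. Bdnf, Ntf3, Gfra1 and Gfra2 were higher and Ngfr was lower in the cells above the median, while Ret did not pass the test. The fit had the plate as a block and 1 residual degree of freedom before moderation. Of 11487 genes tested with edgeR, 877 or 7.63% passed, and of the 9 members 8 were tested and 5 passed. The 8 tested ran in both directions, with a median log2 fold change of 0.94, beside -0.00127 over all genes. With no filter on low counts 0 genes passed, with 1836 at an unadjusted p under 0.05, so that every call of this comparison rests on the filter. The log2 fold changes without it were 3.94 (Bdnf), 3.07 (Ntf3), 1.60 (Gfra1), 1.54 (Gfra2) and -1.92 (Ngfr). DESeq2 called 299 genes and 3 of the members.

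Bdnf had 15.2 and 14.1 CPM in the lower Slc6a3 cells of the E16.5 and P0.5 plates and 231 and 213 CPM in the upper Slc6a3 cells. The lower Slc6a3 cells lay within the range of the 7 VGAT plates, although the E16.5 value was above all VGAT E16.5 plates, and the upper ones lay far above that range. The log2 fold change was 3.92 ± 0.19 (SE, edgeR adjusted p = 2.93e-09). In cells thinned to 4000 counts, Bdnf was found in 5.33% of 150 cells without a Slc6a3 count, in 32.6% of 86 cells with 1 to 4 and in 52.4% of 63 cells with 5 or more at E16.5. At P0.5 the shares were 5.15% of 136, 36.2% of 69 and 50.0% of 44 cells. For cells without a Slc6a3 count the exact 95% binomial intervals were 2.33 to 10.2% at E16.5 and 2.09 to 10.3% at P0.5. For cells with 5 or more they were 39.4 to 65.1% and 34.6 to 65.4%. Each stage is a single plate here, and these intervals cover counting error only, not the spread between plates.

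Ntf3 had 5.21 and 15.9 CPM in the lower and 68.3 and 87.0 CPM in the upper Slc6a3 cells, with a log2 fold change of 3.05 ± 0.28 (SE, edgeR adjusted p = 2.17e-06). Both lower values were above every VGAT plate. Its share of cells was 1.33%, 12.8% and 20.6% in the 3 Slc6a3 classes at E16.5 and 6.62%, 24.6% and 27.3% at P0.5. Bdnf and Ntf3 were found together in 5.35% and 7.63% of the thinned VGAT+Pitx3 cells and in none of the thinned VGAT cells.

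Gfra1 had 76.8 and 59.1 CPM in the lower and 220 and 188 CPM in the upper Slc6a3 cells (log2 fold change 1.58 ± 0.15, SE, edgeR adjusted p = 2.65e-06). A Gfra1 count was found in 22.0% and 21.3% of the cells without a Slc6a3 count, in 37.2% and 50.7% of those with 1 to 4 and in 36.5% and 40.9% of those with 5 or more. Gfra2, the coreceptor that was lower in tdT+GFP+ cells as a whole, was higher in the upper Slc6a3 cells among them, with 8.06 and 18.8 CPM against 29.4 and 42.3 CPM (log2 fold change 1.52 ± 0.29, SE, edgeR adjusted p = 0.00261). This call was lost with DESeq2 and without the plate block. On all VGAT plates Gfra2 had 37.4 to 83.2 CPM, so even the upper Slc6a3 cells were at or below most VGAT plates.

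For Ret the difference was small. It had 185 and 323 CPM in the lower and 265 and 373 CPM in the upper Slc6a3 cells, a log2 fold change of 0.36 ± 0.13 (SE) that did not pass (edgeR adjusted p = 0.140) but passed with spliced counts (log2 fold change 0.35, adjusted p = 0.0476). Both lower values lay above every VGAT plate, where the highest was 26.9 CPM. Ret was found in 47.3%, 51.2% and 54.0% of the cells with 0, 1 to 4 and 5 or more Slc6a3 counts at E16.5, and in 64.0%, 63.8% and 75% at P0.5. A Ret count was thus found in a large part of the tdT+GFP+ cells in which no Slc6a3 count was found.

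Ngfr was low throughout and had 20 and 17 counts in the lower and 4 and 7 counts in the upper Slc6a3 cells, 9.48 and 15.9 against 1.64 and 5.69 CPM. The log2 fold change was -1.94 ± 0.53 (SE, edgeR adjusted p = 0.0346), and the call was lost with RLE factors, without the plate block and when cells with and without a Slc6a3 count were compared, at adjusted p-values of up to 0.438. DESeq2 gave no adjusted p for it. No Ngfr count was found in the 63 and 44 cells with 5 or more Slc6a3 counts, where the exact intervals reach 5.69% and 8.04%. Ntrk3 (log2 fold change -0.49 ± 0.16, edgeR adjusted p = 0.0767) and Ntrk2 (-0.18 ± 0.14, edgeR adjusted p = 0.562) did not pass, and Gdnf had no count in any class. Ntrk3 passed, as lower, when cells with and without a Slc6a3 count were compared (adjusted p = 0.00361), when the outer parts of a split into 3 by Slc6a3 were compared (0.0420) and with at least 1000 genes per cell (0.0342).

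**Figure D3:**
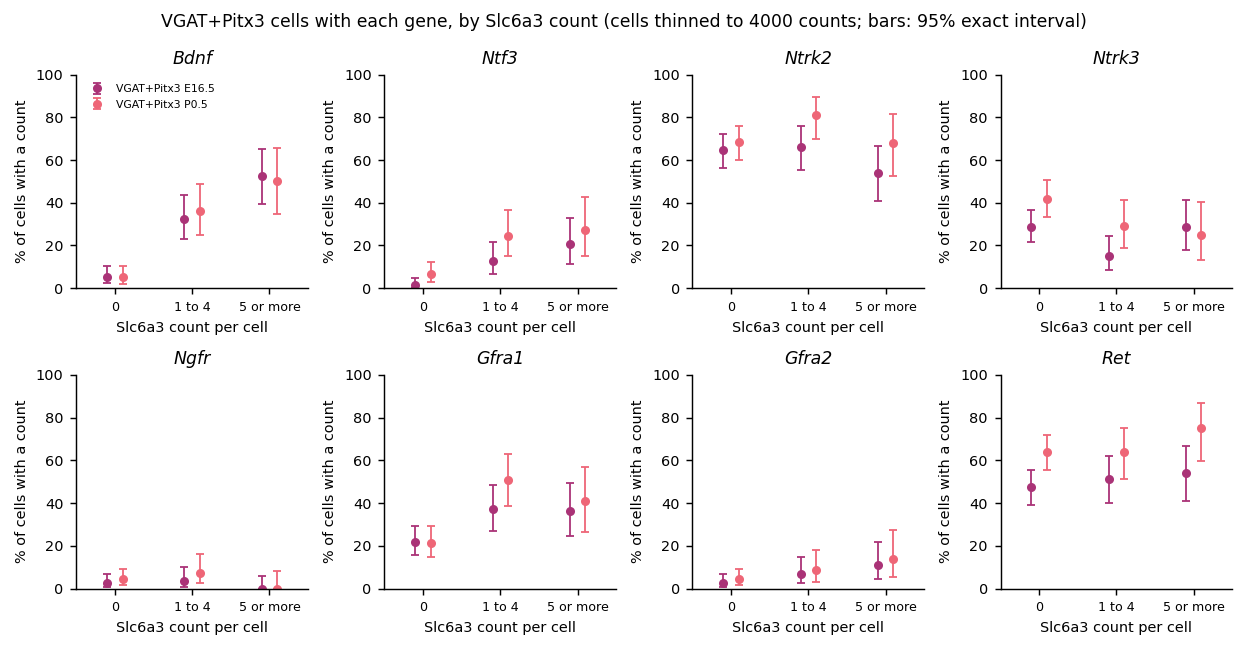
Percent of VGAT+Pitx3 cells with a count of each gene after thinning to 4000 counts, by the thinned Slc6a3 count of the cell (0, 1 to 4, 5 or more), at E16.5 and P0.5, with exact 95% binomial intervals. Bdnf climbs from 5.33% and 5.15% to 52.4% and 50.0%, while Ret is at 47.3% and 64.0% already without a Slc6a3 count.

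The Slc6a3 split moved other markers too. Of the 9 dopamine neuron markers tested, 6 were higher in the upper Slc6a3 cells. Gad2, for GABA synthesis, Slc32a1 and Slc17a6 were lower, with log2 fold changes of -2.67, -1.41 and -2.08 (edgeR adjusted p = 1.49e-06, 9.6e-06 and 2.37e-05). The radial glia marker Fabp7 (-1.63) and the oligodendrocyte lineage marker Olig1 (-1.93) were lower as well. The upper cells were slightly deeper, with median counts of 14929 against 13376 at E16.5 and 8075 against 7128 at P0.5. The part of these differences in the members' changes was not tested. The median was 0.944 and 0.692 counts per 10000, and 27 and 10 cells lay within 1.5 times of it. No Slc6a3 count was found in 117 of the 152 lower cells at E16.5 and in 134 of the 136 at P0.5, so at P0.5 the split was close to one of cells with and without a Slc6a3 count.

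On the VGAT plates 107 of 1459 cells (7.33%) had any count of 4 dopamine markers (Th, Slc6a3, Pitx3 and Slc18a2). These cells held 33 of 357 Bdnf counts (9.24%), 4 of 19 Ntf3 counts (21.1%), 33 of 472 Ret counts (6.99%) and 87 of 1650 Gfra1 counts (5.28%), so most counts of these genes lay in cells without such a marker count. In the 8 cells with 3 or more marker counts (0.548%) there were no Bdnf or Ntf3 counts, 1 Ret count and 7 Gfra1 counts. The highest count of Gfra1 in a single VGAT cell was 43.

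The VGAT cells come from several midbrain regions, and cells with a count of a regional transcription factor gene were compared with the other cells of the same plates, for the members to be placed within the population. The marker of a group was left out of its own test. Groups were fitted for Six3, Pax5, Otx2, Nkx2-2 and the Dlx genes, each with edgeR and the plate as a block, on 5 to 7 plates with at least 10 such cells. The groups share plates and may share cells, so the comparisons are not independent. Gfra1 was higher and Gfra2 was lower in Pax5 cells, and in Otx2 cells the directions were the opposite. Markers of the lists moved too: En1 (log2 fold change 2.77) and the oligodendrocyte marker Mbp (0.80) were higher and Nr4a2 (-2.74), Gata2 (-1.86) and Ddc (-0.99) lower in Pax5 cells, and Foxa2 (3.11), Ddc (2.31), Tal1 (0.56) and Gad1 (0.36) were higher and Gata3 (-0.72) lower in Otx2 cells. In Nkx2-2 cells 2 GABA and 1 dopamine neuron markers were higher and 2 dopamine neuron markers lower, in Dlx cells 1 dopamine neuron marker was higher and 3 of each list lower, and in Six3 cells 2 GABA markers were higher and 2 dopamine neuron markers lower. The part of these differences in the members' values was not tested.

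Gfra1 had 307, 77.5, 210 and 240 CPM in the Pax5 cells of VGAT E16.5 replicates 1 to 4 and 119 CPM in those of P0.5 replicate 2, against 57.2, 29.5, 52.9, 32.1 and 59.9 CPM in the other cells. The lowest Pax5 value lay above the highest of the others. The log2 fold change was 2.06 ± 0.18 (SE, edgeR adjusted p = 7.5e-07) and the direction was the same on 5 of 5 plates. Of 12089 genes tested, 810 or 6.7% passed, and of the 9 members 6 were tested and 2 passed. Gfra2 was at 35.5 ± 22.0 CPM (SD, n = 5) in the Pax5 cells and 57.5 ± 14.4 CPM in the others, with a log2 fold change of -0.67 ± 0.18 (SE, edgeR adjusted p = 0.0275). It was lower on all 5 plates, but the call was lost with DESeq2 and without E16.5 replicate 3 or 4. Ntrk3 did not pass (log2 fold change 0.35, edgeR adjusted p = 0.114), but passed with no filter, with at least 1000 genes per cell and without P0.5 replicate 2.

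Gfra2 had 71.0, 145, 72.8 and 70.1 CPM in the Otx2 cells of VGAT E16.5 replicates 1 to 4 and 93.2 and 109 CPM in those of P0.5 replicates 2 and 3. The other cells of these plates had 28.9, 51.2, 40.1, 43.7, 69.4 and 80.3 CPM. Otx2 cells were higher on 6 of 6 plates, although the ranges overlapped between plates, and the log2 fold change was 0.92 ± 0.14 (SE, edgeR adjusted p = 0.000539). Of 11861 genes tested, 724 or 6.1% passed, and of the 9 members 7 were tested and 3 passed. Gfra1 was at 33.0 ± 20.3 CPM (SD, n = 6) in Otx2 cells and 71.4 ± 33.8 CPM in the others (log2 fold change -1.15 ± 0.24, SE, edgeR adjusted p = 0.0071). Ntrk3 was at 271 ± 67.3 and 356 ± 75.3 CPM (log2 fold change -0.41 ± 0.08, SE, edgeR adjusted p = 0.0029). Both were lower in the Otx2 cells on all 6 plates. The Gfra1 call was lost with at least 1000 genes per cell (adjusted p = 0.0639) and without E16.5 replicate 4 (adjusted p = 0.0503), and the Ntrk3 call with at least 2 marker counts.

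In the Nkx2-2 cells 2 of 6 members tested passed, where 369 of 12411 genes or 2.97% did. Gfra1 was lower, at 28.3 ± 10.3 against 75.6 ± 36.2 CPM (SD, n = 6, log2 fold change -1.46 ± 0.23, edgeR adjusted p = 0.00105), and so was Ntrk3, at 283 ± 75.6 against 354 ± 71.7 CPM (log2 fold change -0.33 ± 0.07, edgeR adjusted p = 0.0154). The Gfra1 call was lost with at least 1000 genes per cell (adjusted p = 0.107), and the Ntrk3 call there, with at least 2 marker counts and without E16.5 replicate 1, 2 or 3. In the Dlx cells Gfra1 alone passed of 6 members tested, at 39.6 ± 21.2 against 76.1 ± 22.3 CPM (SD, n = 5, log2 fold change -0.80 ± 0.18, edgeR adjusted p = 0.0183), where 223 of 12384 genes or 1.8% did. That call was lost with DESeq2, with spliced counts and without E16.5 replicate 2 or 4. No member passed in the Six3 cells, where 302 of 12982 genes or 2.33% did, and Gfra1 had the largest log2 fold change there, -0.62 (edgeR adjusted p = 0.335). Gfra1 thus passed in 4 of the 5 groups fitted, upwards in the Pax5 cells, where the call held in all alternatives run, and downwards in the Otx2, Nkx2-2 and Dlx cells, where it did not hold in all. The other cells of the Otx2, Nkx2-2 and Dlx comparisons include Pax5 cells, so these calls are not separate from the Pax5 call. In cells without a Pax5 count Gfra1 was at 46.3 ± 14.4 CPM (SD, n = 5). The part of the Pax5 cells in the lower calls was not tested.

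**Figure D4:**
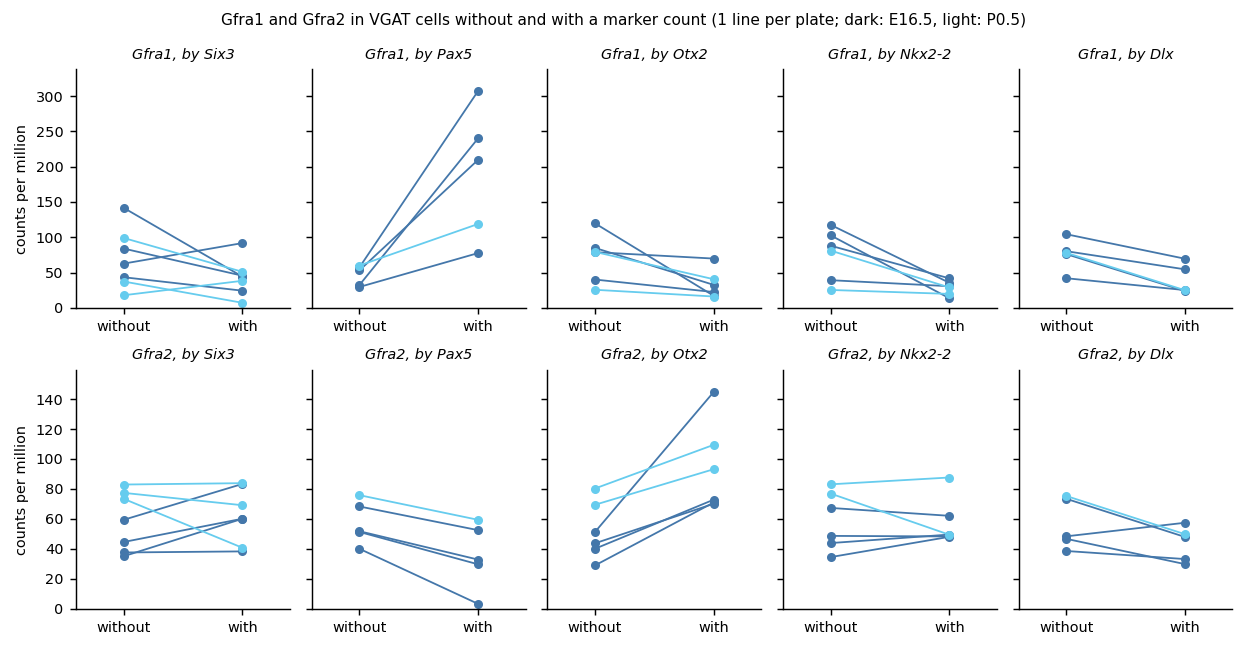
Gfra1 and Gfra2 in CPM in VGAT cells with and without a count of each marker, with a line for each plate. Gfra1 is higher in Pax5 cells on 5 of 5 plates and Gfra2 is higher in Otx2 cells on 6 of 6 plates.

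Single cells allow the question of whether ligand, coreceptor and receptor are found in the same cell. On VGAT plates 8.92% ± 6.70 (SD, n = 6) of the cells with Gfra1 had a Ret count, and 5.93% ± 2.42 of those lacking it. This gap of 2.99 points did not pass the exact permutation test over plates (sign flips, two-sided, p = 0.3125, adjusted over 5 pairs 0.742). The differences for Ret by Gfra2 (1.05 points), Gfra1 by Gfra2 (0.185), Ntrk2 by Bdnf (6.88) and Ntrk3 by Ntrk2 (2.16) had adjusted exact p-values of 0.742, 0.875, 0.742 and 0.742. With 5 to 7 plates the smallest possible unadjusted p is 0.0625 to 0.0156. Ntrk2 by Bdnf, with 5 plates, could therefore not pass this test whatever its difference. The sixth pair chosen, Ntrk3 by Ntf3, had too few Ntf3 cells on any VGAT plate. On the VGAT+Pitx3 plates, given without a test, Ntrk3 was found in 11.5% and 21.1% of the cells with Ntf3 and in 26.0% and 37.9% of those without. For the other 5 pairs the differences on these plates at E16.5 and P0.5 were 3.46 and 7.26 points for Ret by Gfra1, 3.30 and 18.8 for Ret by Gfra2, -12.5 and 30.4 for Gfra1 by Gfra2, -2.61 and 0.427 for Ntrk2 by Bdnf and -2.19 and 3.46 for Ntrk3 by Ntrk2, so that the last 3 differed in sign between the plates. Gfra2 was found in only 17 and 18 of these cells.

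In the thinned VGAT+Pitx3 cells at E16.5 and P0.5, Ret was found without either coreceptor in 32.1% and 40.6%, with Gfra1 in 15.4% and 23.3% and with Gfra2 in 3.01% and 6.02%. On the VGAT plates Ret was found without either coreceptor in 4.06% ± 1.43 (SD, n = 7) of cells, with Gfra1 in 0.798% ± 0.696 and with Gfra2 in 1.25% ± 0.985. Gfra1 or Gfra2 was found without Ret in 23.8% ± 3.44 (SD, n = 7) of VGAT cells and in 16.4% and 10.4% of VGAT+Pitx3 cells. Bdnf and Ntrk2 were found together in 14.0% and 15.7% of VGAT+Pitx3 cells and in 2.94% ± 1.30 (SD, n = 7) of VGAT cells. Neither Ntrk2 nor Ntrk3 was found in 27.4% and 18.9% of VGAT+Pitx3 cells and 14.6% ± 4.17 of VGAT cells. At this depth a gene that is not found in a cell may still be expressed there, so these shares describe detection.

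Of 53 other genes of the same pathways, which were given as a list of ligands, receptors, adaptors, processing enzymes and response genes, 44 were tested between the sorted populations. 5 were higher and 3 lower, where 8.93% of all genes passed, and their median log2 fold change was 0.08. The response genes Etv1 and Etv5, which encode ETS transcription factors induced by growth factor signalling, had log2 fold changes of 3.85 and 3.16 (edgeR adjusted p = 3.39e-08 and 0.000529), from 4.58 ± 2.21 to 64.4 ± 3.56 CPM and from 1.70 ± 1.97 to 13.4 ± 0.556 CPM (SD, n = 7 and 2). Of the 11 response genes tested only Etv1 and Etv5 passed, and the median log2 fold change of the 11 was 0.22. Pcsk6, for a proprotein convertase, and the adaptor gene Shc3 were higher by 2.07 and 1.22. Nrtn, which encodes neurturin, the ligand preferring GFRα2, had 29, 33, 35 and 34 counts on the VGAT E16.5 plates, 9, 18 and 36 on the VGAT P0.5 plates, and 2 and 0 on the VGAT+Pitx3 plates. It was lower by a log2 fold change of -4.50 (edgeR adjusted p = 0.000123), as were the sortilin family receptor genes Sorcs1 (-2.54) and Sorcs3 (-2.32). Nrtn thus ran in the same direction as Gfra2 and against Ret.

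In the upper Slc6a3 cells, where 7.63% of all genes passed, 5 of 42 pathway genes tested were higher, among them Traf6, a p75 partner (1.93), Etv1 (1.90), Spry4, a feedback inhibitor of receptor tyrosine kinase signalling (1.75), and Vgf, a neuropeptide precursor gene known to respond to BDNF (1.45), and 3 were lower, Pcsk5 (-1.76), Sorcs1 (-1.60) and Sorcs2 (-0.63). Of the 10 response genes tested 2 passed, Etv1 and Spry4, and the median log2 fold change of the 10 was -0.53, with the other 8, which did not pass, from -1.22 to 1.31. Etv1 was thus higher both in tdT+GFP+ cells and, within them, in the upper Slc6a3 cells. Between stages Vgf (1.67) and Pcsk5 (0.65) were higher and Gab2 (-0.55) lower at P0.5, of 42 tested (4.58% of all genes). No pathway gene of 46 passed in the interaction. In the Pax5 cells (6.7% of all genes) 4 of 41 were higher (Dok5 0.77, Rtn4r 0.74, Sorcs2 0.42 and Maged1 0.30) and 2 lower (Egr1 -2.19 and Sorcs3 -0.41). In the Otx2 cells (6.1%) Spry1 (0.91) and Sorcs2 (0.63) were higher and Sorcs1 (-0.99) lower, of 42 tested. The Nkx2-2 cells (2.97%) had Dok6 (0.41) higher and Pcsk5 (-1.21) lower of 41, the Six3 cells (2.33%) Pcsk6 (1.13) higher and Etv1 (-1.42) lower of 43, and the Dlx cells (1.8%) none of 42. The values in parentheses after gene names are log2 fold changes with an edgeR adjusted p under 0.05.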

How the data were processed

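Single cells of 9 plates were sequenced with SORT-seq, a plate form of CEL-seq2. The authors aligned reads with STAR to GRCm38, counted distinct molecular barcodes per gene and well and corrected them for barcode collisions. The deposited values are therefore expected counts, not scaled to depth: 51.5% of non-zero values were not whole, and 100% lay within 0.001 of the correction for 6 random bases. No column was without a sample (0). A well entered with 2000 or more genes, no more than 50000 counts (spike-ins left out) and under 15% mitochondrial counts. The counts of the kept cells were summed per plate and rounded. Precision is set by the depth of 1435919 to 5408710 counts per plate. No cell profile was identical to another (0 pairs).

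The sums were fitted in edgeR 4.0.16 (R 4.3.3), with genes kept by filterByExpr, TMM factors and quasi-likelihood F tests, and p-values were adjusted by Benjamini-Hochberg over all genes tested (threshold 0.05). DESeq2 1.42.0 was an alternative, beside RLE factors, no filter, spliced counts, other cell filters, other depths, a block for the replicate number and leaving out plates in turn. 2 alternatives on the second plate label were chosen after seeing the data. Shares of cells used 1956 cells thinned to 4000 counts (78 cells were shallower), and co-detection an exact permutation test that flips signs over plates (two-sided) (Python 3.11.15, numpy 2.4.6, scipy 1.17.1). Intervals are exact 95% binomial and cover counting error only. The tests were tested on simulated data. Positions come from GENCODE on GRCm38.

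Named are all 9 members and, of 53 pathway genes, up to 4 with the largest change in each direction past the threshold. For members with a mean of at least 10 CPM, the 3 genes most like them are also named. Of 7 marker groups, Pax7 and the Hox genes had fewer than 3 plates with 10 cells and were not fitted. The members and lists were chosen with earlier results of these data known. Imaging and recordings are not analysed here.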

Additional observations from a re-analysis of the deposited data

Results flagged for a closer look

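In the VGAT E16.5 group, 0.341% of the thinned cells of replicate 4 (1 of 293) had a Gdnf count, while the other 3 plates of the group had none, so that this plate stood apart from the rest. Of 18 groups of plate values examined in this way this was the only one, and chance alone sets about 1 in 20 groups of continuous values apart. That rate does not hold here, since with the other plates at 0 any single count sets a plate apart, and the value rests on a single cell.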

How the results depend on the processing

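Across the alternatives, 745 values of members kept their direction and their side of the threshold, 54 changed sign, 31 lost and 16 gained a call, and Bdnf, Ntf3, Ret and Ntrk3 remained called between the sorted populations in all 16 alternatives, 2 of which leave 1 VGAT+Pitx3 plate that is assumed to vary like the VGAT plates. Ntf3 entered the filtered fits only through its counts on the VGAT+Pitx3 plates. Causes were not tested. The number of genes called between populations was 625 to 1396 with a plate left out. Between stages it was 76 to 833 with a plate left out, with 0 to 1 members, 940 with DESeq2, 1592 with no filter (4 members), and 1 with the second label. The interaction gave 14 with DESeq2 and 66 with no filter and could not be fitted without a VGAT+Pitx3 plate. The Slc6a3 comparison gave 299 with DESeq2 (3 members), 0 with no filter (0 members) and 148 without the plate block (3 members). With no filter, Six3 cells gave 660 genes (1 member), Otx2 cells 1478, Nkx2-2 cells 648 and Dlx cells 425. With DESeq2, Pax5 cells gave 499 (1 member) and Dlx cells 135 (0 members). Members called were 0 with spliced counts and 2 with at least 2 marker counts in Dlx cells, and 0 with at least 1000 genes per cell and 1 with at least 2 marker counts in Nkx2-2 cells. With a plate left out, genes called were 189 to 352 (Six3), 444 to 797 (Pax5, 1 to 3 members) and 119 to 272 (Dlx, 0 to 1), and 1 to 2 members were called in Nkx2-2 cells.

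With the replicate number as a block, 914 genes were called between populations and 226 between stages, with no member gained. Correlations of plates across stages were -0.0625 to 0.0581, so the numbers do not pair plates.

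Sign changes concerned values without a call. For stage with the second label these were Bdnf -0.48, Ntrk2 0.22, Ntrk3 0.29, Gfra1 0.98, Gfra2 -0.20 and Ret -0.38, with the plates whose labels agree Ntrk2 0.24 and Gfra1 0.38, and with spliced counts Ntrk2 0.075. In Six3 cells they were Ntrk3 0.037 (2 marker counts) and Ngfr -0.10 (1000 genes) and -0.20 (no upper limit), in Pax5 cells Bdnf 0.34 (no upper limit) and 0.26 (2 marker counts), in Otx2 cells Bdnf 0.13 (1000 genes) and 0.033 (2 marker counts), Ntrk2 -0.073 (no filter), -0.0133 (spliced) and -0.0127 (no upper limit) and Ret -0.10 (no filter). In Nkx2-2 cells with 1000 genes Bdnf was 0.36, Gfra2 -0.023 and Ret 0.091, and in Dlx cells Ntrk2 was -0.0401 (no filter) and -0.00798 (spliced) and Ret -0.0080 (no filter), -0.0475 (1000 genes) and -0.32 (2 marker counts). With a plate left out, log2 fold changes ran from -0.16 to 0.27 (Ntrk2, populations), -0.14 to 0.0515 (Ntrk2, stage), -0.95 to 0.12 (Ngfr, stage), -0.0467 to 0.27 (Gfra2, interaction), -0.0890 to 0.31 (Ret, interaction), -0.37 to 0.0121 (Ntrk2, Slc6a3), -0.12 to 0.00783 (Ntrk3, Six3), -0.0733 to 0.37 (Ngfr, Six3), -0.28 to 0.0136 (Bdnf, Pax5), -0.26 to 0.0665 (Ret, Pax5), -0.28 to 0.18 (Bdnf, Otx2), -0.0327 to 0.13 (Ret, Otx2), -0.0390 to 0.0887 (Gfra2, Nkx2-2), -0.20 to 0.0163 (Ret, Nkx2-2), -0.00295 to 0.14 (Ntrk2, Dlx), -0.24 to 0.00372 (Ntrk3, Dlx) and -0.16 to 0.25 (Ret, Dlx).

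Of the co-detection differences, Ret by Gfra1 was -0.379, Ret by Gfra2 -0.889 and Gfra1 by Gfra2 -3.37 points with at least 2 counts, Gfra1 by Gfra2 also -1.35 at 8000 counts, -3.93 with spliced counts and -0.493 to 0.821 with a plate left out, Ntrk3 by Ntrk2 -0.619 with spliced counts and Ntrk2 by Bdnf -2.84 with 1000 genes. Shares of cells moved by more than 1 SD between plates in 39 of 54 values under other depths or with spliced counts. Levels under 2.09 CPM are not resolved on the shallowest plate, which limits Ntf3, Ngfr and Gdnf on VGAT plates.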

Other observations

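Across 18 sums of cells, by marker group or Slc6a3 level and by stage, the genes with the highest Pearson r of log2(CPM + 5) to a member were as follows, given as a description with no test, since these sums share plates and cells. Bdnf was most like Slc6a3 (r = 0.91), App (0.88) and Lbh (0.86). Ret was most like Chrna6, a nicotinic receptor subunit gene (0.95), Pitx3 (0.93) and Gm21949 (0.93). Gfra1 was most like Fjx1 (0.86), Kcnd3 (0.81) and Tgfbr3 (0.81), and Gfra2 most like Gcsh (0.88), Tcea2 (0.88) and Rpl30 (0.85). Ntrk3 was most like Sh3pxd2a (0.96), the receptor gene Sorcs1 (0.91) and Sgcz (0.90), and Ntrk2 most like Gas2 (0.80), Sec24a (0.75) and Ccdc57 (0.73). The sums that define the Slc6a3 classes and those of cells sorted for Pitx3-GFP are among the 18, which bears on the values for Slc6a3 and Pitx3 themselves. The Pax7 and Hox groups, which were not fitted, are also among them. The sums hold 42297 counts (Hox, P0.5) to 7167826 counts (Six3, E16.5), so single counts weigh heavily in the smallest.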
